A study of Mus musculus with 10 samples.

Results

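Zc3h12a and Icam1, a pair of genes tied to inflammatory signalling, carried more nascent RNA within 0.5 hours of SOX2 depletion in mouse embryonic stem cells, and they are described here beside 6 genes of the NF-kB pathway. Zc3h12a and Icam1 were selected on their rise at 0.5 hours post depletion (hpd) against untreated cells. Nfkb1, Nfkb2, Rela, Relb, Nfkbia and Tnfaip3 were chosen by function. All 8 genes had a transcribed unit, that is a stretch of continuous nascent transcription on 1 strand, that exceeded 10 fragments in 2 or more libraries. They are 8 of 40779 units in the deposited table, of which 28459 passed that filter and were tested, 14997 with a gene symbol.

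Nascent RNA was measured with TT_chem_seq, in which newly made RNA is pulse-labelled with 4-thiouridine (here 2 mM for 10 min), fragmented, captured and sequenced. The cells were E14 embryonic stem cells (the methods name IB10 for the SOX2 line) of the genotype SOX2-FKBP, in which the endogenous SOX2 protein carries a degron tag that dTAG-13 directs to degradation. The tag was knocked in and homozygous clones were used, so that all groups carry it, and the cells grew without serum in N-2 and B-27 with LIF and the inhibitors PD0325901 and CHIR99021. The 5 groups had 2 replicates each: DMSO without dTAG-13 (NT, not treated), and 500 nM dTAG-13 for 0.5, 1, 2 and 6 h. According to the methods, depletion was begun at different times and all cells were harvested together, after a change of medium and with DMSO added in parallel. Untagged cells given dTAG-13 were not analysed here, so that loss of SOX2 and exposure to dTAG-13 cannot be told apart. Nothing states whether replicates came from separate cultures, and p-values measure only the spread between these libraries.

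NF-kB is a family of dimeric transcription factors that wait in the cytoplasm, bound by inhibitors of the IkB family. When a receptor activates the IKK kinases, IkB is degraded, the dimers enter the nucleus and bind kB sites, and some of the first genes they switch on (Nfkbia, Tnfaip3, Zc3h12a) encode proteins that shut the response down again. Zc3h12a encodes Regnase-1, an endoribonuclease that degrades inflammatory mRNAs, and Icam1 encodes an adhesion molecule of the cell surface that binds leukocyte integrins. Pluripotent stem cells are known for low NF-kB activity.

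The libraries held 11131490 to 25854106 fragments. Levels below are in CPM, fragment counts scaled to 1 common library size with edgeR's factors. All 8 pluripotency markers examined were transcribed, with a sum of 4290 to 4830 CPM in NT and 3560 to 3710 CPM at 6 hpd. Klf4, Pou5f1, Esrrb and Nanog were called lower at 6 hpd, as were 7.75% of all units with a gene symbol. Sox2, Tfcp2l1, Zfp42 and Tdgf1 were not called then, with log2 fold changes of 0.063, 0.014, -0.11 and -0.15. Of 8 markers of macrophages and other blood cells, Cd68 alone had a unit (12.8 to 18.9 CPM), and Ptprc, Csf1r and Adgre1 had none. Of 8 endothelial markers 5 had a unit, with a sum of 29.1 to 35.5 CPM in NT and 16.7 to 18.5 CPM at 6 hpd. Among them Cdh5 was called higher after 1 and 2 h (means of 0.565 CPM in NT, 1.55 and 1.55 CPM then and 0.759 CPM after 6 h), though not by DESeq2. After 6 h Vwf (16.1 CPM in NT, 8.09 CPM then) and Kdr (10.4 and 6.99 CPM) were called lower (adjusted p = 0.0016 and 0.047). DESeq2 called 1 endothelial marker lower at that time. Of 6 markers of primitive endoderm 5 had a unit (4.52 to 5.06 CPM in NT and up to 7.35 CPM at 6 hpd, with no overlap between these groups), and of 6 of neural or mesodermal progenitors 2 (11.8 to 25.3 CPM, with 24.3 to 25.3 CPM at 0.5 hpd and 11.8 to 17.9 CPM in NT). Of these Eomes was called higher after 0.5, 1 and 2 h (adjusted p = 0.0015, 0.00018 and 4.0e-05), with means of 2.42 CPM in NT, then 6.94, 7.52 and 8.40 CPM, and 3.33 CPM after 6 h. Gata6, of primitive endoderm, was called higher after 2 h (log2 fold change 1.14, adjusted p = 0.029), though not by DESeq2. Of 8 fibroblast markers 3 had a unit, and Col1a2, Col3a1 and Dcn had none. Their sum was 10.3 to 12.8 CPM in NT, 16.6 to 20.1 CPM at 0.5 hpd and 26.3 to 42.4 CPM at 6 hpd. Most of it was Pdgfrb, with means of 10.2 CPM in NT and 33.6 CPM at 6 hpd. Pdgfrb was called higher after 1, 2 and 6 h (adjusted p = 0.0039, 0.00052 and 4.9e-05), and Col1a1 (mean 0.713 CPM) was called at no time. The part of these markers in any result was not tested. Of 11 tested immediate early genes, which are known to respond to handling, 2, 2, 4 and 2 were called higher over the 4 times and 3 lower after 6 h (DESeq2: 2, 3, 2 and 1 higher and 2 lower). Among all units with a gene symbol, 0.834%, 3.55%, 6.88% and 10.4% were called higher at these times and 7.75% lower after 6 h. The median log2 fold change of the 11 immediate early genes was 0.41, 0.48, 0.33 and -0.25 over the 4 times. Over all tested units, with or without a symbol, it was -0.022, -0.043, -0.040 and -0.036. Junb, a subunit of AP-1, had a log2 fold change of 0.86 ± 0.12 (SE; adjusted p = 0.0015) after 0.5 h and of -0.83 ± 0.13 (adjusted p = 0.00034) after 6 h. Atf3, a stress-induced transcription factor, was called higher at all 4 times (0.62, 1.16, 1.59 and 1.33, adjusted p = 0.044, 0.00013, 3.7e-06 and 1.2e-05), and Ier5 after 2 h (0.95, adjusted p = 0.0017). The part of these genes in the rise of Zc3h12a and Icam1 was not tested.

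Promoter sequences are shown first for the 4 genes on which the sequence comparison turns, each as the 250 bases before the RefSeq start site on the gene's strand (build GRCm38.p6). Capitals mark matches to the kB motif or to the 9 letters GGAAATTCC of a variant of it, which was chosen after these promoters had been read.
Zc3h12a (chr4:125127882-125128131, minus strand): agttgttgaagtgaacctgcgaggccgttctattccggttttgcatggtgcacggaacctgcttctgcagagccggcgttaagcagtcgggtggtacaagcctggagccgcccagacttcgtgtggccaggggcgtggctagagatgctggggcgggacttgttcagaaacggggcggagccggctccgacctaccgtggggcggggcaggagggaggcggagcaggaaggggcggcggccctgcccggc
Icam1 (chr9:21015690-21015939, plus strand): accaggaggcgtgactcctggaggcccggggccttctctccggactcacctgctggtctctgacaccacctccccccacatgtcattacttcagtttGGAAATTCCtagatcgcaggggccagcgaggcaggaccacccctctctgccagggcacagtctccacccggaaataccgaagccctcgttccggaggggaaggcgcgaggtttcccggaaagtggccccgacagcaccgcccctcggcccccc
Nfkbia (chr12:55492648-55492897, minus strand): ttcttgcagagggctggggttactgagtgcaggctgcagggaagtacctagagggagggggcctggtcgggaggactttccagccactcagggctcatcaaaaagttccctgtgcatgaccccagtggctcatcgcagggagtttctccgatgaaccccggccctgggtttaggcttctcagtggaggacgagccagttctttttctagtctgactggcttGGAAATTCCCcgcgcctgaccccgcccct
Tnfaip3 (chr10:19015411-19015660, minus strand): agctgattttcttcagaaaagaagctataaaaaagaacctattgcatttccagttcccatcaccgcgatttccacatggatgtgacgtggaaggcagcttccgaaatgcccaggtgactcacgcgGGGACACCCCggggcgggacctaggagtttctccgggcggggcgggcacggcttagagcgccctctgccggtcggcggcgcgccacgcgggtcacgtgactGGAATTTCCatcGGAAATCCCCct

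RefSeq promoters were at hand for 6 of the 8 genes, Zc3h12a, Icam1, Nfkb2, Rela, Nfkbia and Tnfaip3, and not for Nfkb1 and Relb. The kB motif, searched on both strands, was present in 3 of these, Nfkb2, Nfkbia and Tnfaip3, and in 7.25% of all 32851 promoters. Neither Zc3h12a nor Icam1 held a match. In Nfkbia the match lay at -29 to -20 from the start site, and in Tnfaip3 matches lay at -125 to -116 and at -12 to -3. All 3 Nfkb2 promoters held at least 1 match, and the second of the 2 Tnfaip3 promoters held none. The share of all promoters counts promoters and not genes, so that genes with several promoters have more chances of a match. The letters GGAAATTCC occurred in Icam1 at -153 to -145, in Nfkbia at -29 to -21 (inside its kB match) and, on the other strand, in Tnfaip3 at -24 to -16, and in 0.286% of all promoters. Because these letters were taken from the Icam1 and Nfkbia sequences, the count of 3 carries no test. With any base at the middle positions, all 6 genes held a kB match, as did 45.8% of all promoters. The SOX core CATTGT, present in 10.7% of promoters, was in none of the 6. The AP-1 motif TGANTCA, present in 6.75%, was in Nfkb2 and Tnfaip3. A match is a description of letters, and a missing match says only that these letters are not in this window.

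The unit counted for each gene is not always the gene alone. The Zc3h12a unit, chr4:125115624-125127920 (mm10), began 0.0390 kb before the RefSeq start and ran 2.79 kb past the end. The Icam1 unit (chr9:21014715-21041136, 26.4 kb) began 1.23 kb before the gene, and the promoter window above lies inside it. It also held all of Icam4 and Icam5, adhesion molecules of the same family that have no unit of their own, so that its counts cannot be split among the 3 genes. The Relb unit (50.2 kb) held 74.8% of Relb and all of Clasrp, a splicing factor gene that made up 46.8% of the unit and has no other. The Nfkbia unit (21.0 kb) was 15.5% Nfkbia, and the Rela unit began 12.7 kb before Rela. Values named Icam1, Relb, Nfkbia and Rela below are values of these units. The units of Nfkb1 (98.3% inside the gene) and Tnfaip3 (96.3%) followed their genes, and that of Nfkb2 covered 67.0% of its gene.

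**Figure D1:**
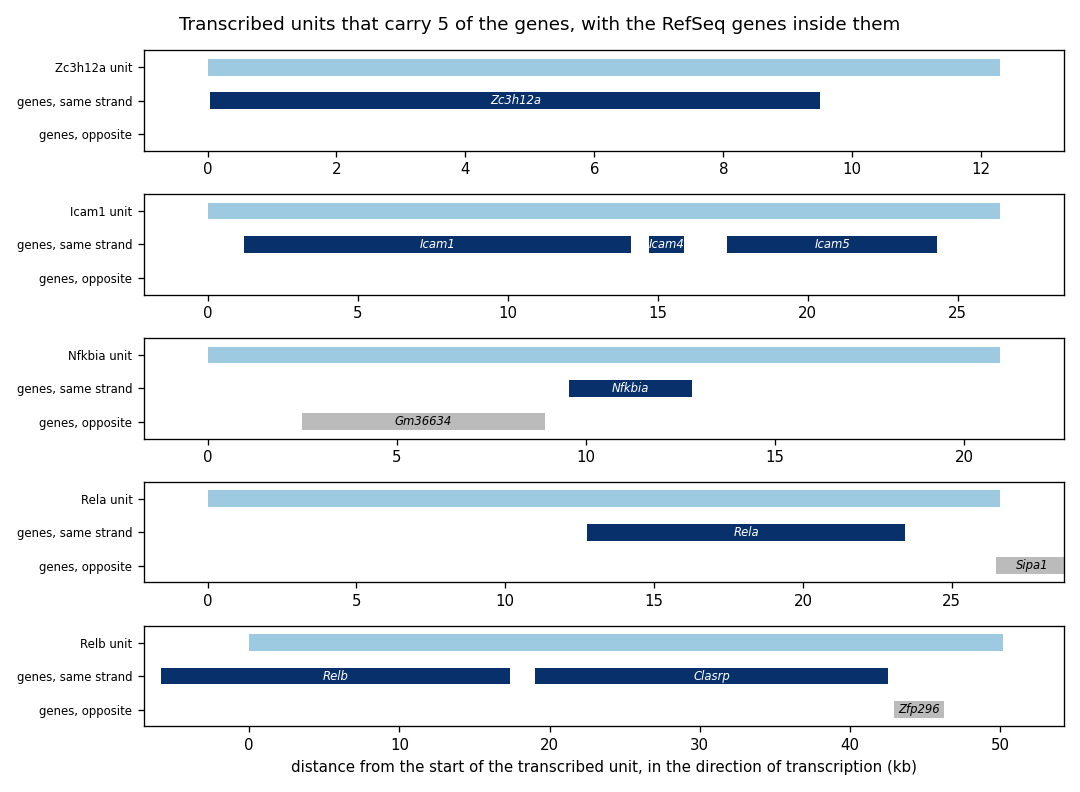
Transcribed units (light bars) of 5 genes with the RefSeq genes on the same (dark) and the opposite strand (grey), over the distance from the start of the unit in kb. The Icam1 unit also spans Icam4 and Icam5, the Relb unit spans Clasrp, and Nfkbia fills 15.5% of its unit.

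Zc3h12a held 20.3 and 16.1 CPM in the NT libraries, 40.4 and 47.6 after 0.5 h, 45.2 and 44.1 after 1 h, 26.6 and 28.6 after 2 h, and 20.5 and 16.7 after 6 h. The libraries at 0.5, 1 and 2 hpd all lay above those of NT, and those at 6 hpd overlapped NT. With 2 libraries per group such separation arises easily, here and for the other genes. The share of all units that showed it was not counted. Against NT its log2 fold changes were 1.26 ± 0.14 (SE), 1.29 ± 0.14, 0.60 ± 0.14 and 0.027 ± 0.15 over the 4 times, or 2.40, 2.45, 1.51 and 1.02 times the NT level. Between 0.5 and 1 hpd the log2 difference was 0.028 ± 0.13, less than its SE. Because the gene was selected on the NT and 0.5 hpd libraries, these values are a description without a test.

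Icam1 followed the same course with a smaller rise from a higher level. Its unit held 68.6 and 69.6 CPM in NT, 122 and 131 after 0.5 h, 124 and 123 after 1 h, 93.9 and 102 after 2 h, and 70.0 and 68.9 after 6 h. As for Zc3h12a, every library from 0.5 to 2 hpd lay above NT and those at 6 hpd overlapped NT. The log2 fold changes over the 4 times were 0.87 ± 0.098, 0.84 ± 0.098, 0.51 ± 0.097 and 0.0073 ± 0.098, again without a test. They correspond to 1.83, 1.79, 1.42 and 1.01 times the NT level.

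**Figure D2:**
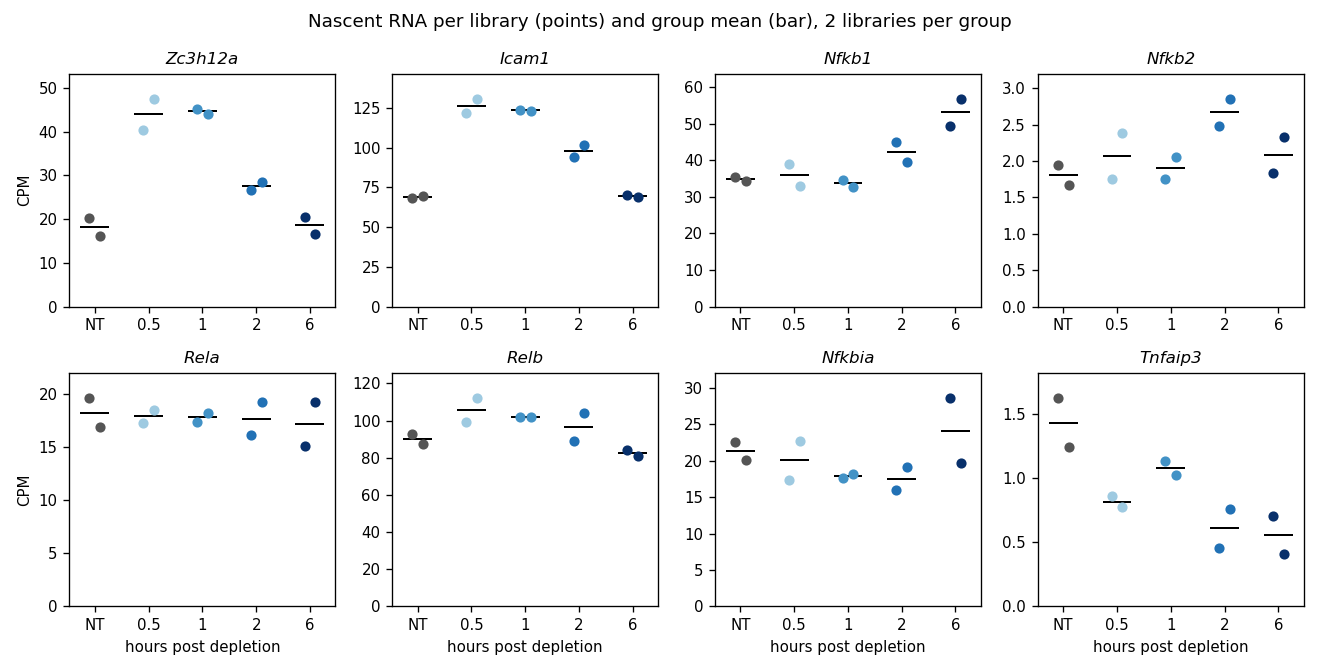
CPM of each gene's unit in each of the 10 libraries (points, with a bar at the mean of the 2 libraries of a group) over NT and 0.5, 1, 2 and 6 hours post depletion, each axis from 0. Zc3h12a and Icam1 are high at 0.5 and 1 hpd and near NT at 6 hpd, Nfkb1 is highest at 6 hpd and Rela stays between 15.1 and 19.6 CPM.

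The return from the peak was tested between the 1, 2 and 6 hpd groups, since the rise that marked out the genes was measured in the NT and 0.5 hpd libraries. Those libraries still entered the estimate of spread, which all groups shared. From 1 to 6 hpd Zc3h12a fell by 1.27 ± 0.14 on the log2 scale (adjusted p = 8.4e-05), to 0.416 times its level at 1 hpd, and Icam1 fell by 0.83 ± 0.097 (adjusted p = 0.00016), to 0.562 times. In this comparison 3 of the 8 genes were called, 2 lower and 1 higher (Nfkb1, below), where 2.92% of all units were called lower and 1.96% higher. Genes selected for a high level at 0.5 hpd have more room for a fall than for a rise, so that the direction of this change is not independent of their choice. The genes were also chosen with earlier results of these data known, so that these p-values are not independent of the choice either.

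Split at 2 hpd, edgeR called the second step for Icam1 and neither step for Zc3h12a. From 1 to 2 hpd the log2 change was -0.69 ± 0.13 for Zc3h12a (adjusted p = 0.052) and -0.33 ± 0.096 for Icam1 (adjusted p = 0.35), and edgeR called 0 of the 8 genes, with 3 at an unadjusted p under 0.05, while 0.218% of all units were called in either direction. DESeq2 called 1 gene, Zc3h12a (adjusted p = 0.0091). Zc3h12a also passed without NT replicate 1 (adjusted p = 0.043) or replicate 2 (0.042), and without 0.5 hpd replicate 1 (0.040) or replicate 2 (0.033). From 2 to 6 hpd Icam1 fell by 0.50 ± 0.097 (adjusted p = 0.025), the 1 call among the 8 genes beside 0.777% of all units, and Zc3h12a changed by -0.57 ± 0.14 (adjusted p = 0.081; 0.045 in DESeq2). The Icam1 call was lost without 1 hpd replicate 1 or 2 (adjusted p = 0.062 for each), 2 hpd replicate 2 (0.18), 6 hpd replicate 1 (0.19) or 6 hpd replicate 2 (0.16), with log2 changes of -0.50 to -0.40. From 0.5 to 1 hpd edgeR called 0 of the 6 genes chosen by function, none had an unadjusted p under 0.05, DESeq2 called 0, and 0.109% of all units were called.

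None of the 6 genes chosen by function was called in the first 2 h. Of these, edgeR called 0, 0 and 0 after 0.5, 1 and 2 h, with 0, 0 and 2 at an unadjusted p under 0.05 and 0 in DESeq2 at each. At 6 hpd 1 was called higher (Nfkb1) and 1 lower (Tnfaip3), and DESeq2 called Nfkb1 alone. Over all tested units, 0.527%, 2.15%, 4.26% and 6.61% were called higher at 0.5, 1, 2 and 6 hpd, and 0.787%, 3.61%, 5.57% and 9.20% lower. The median log2 fold change of the 6 was 0.0088, -0.042, 0.026 and 0.042, beside -0.022, -0.043, -0.040 and -0.036 over all units.

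Nfkb1, which encodes p105 and its processed form p50, rose late. Its unit held 35.5 and 34.3 CPM in NT, 38.9 and 33.1 after 0.5 h, 34.6 and 32.8 after 1 h, 45.0 and 39.5 after 2 h, and 49.3 and 56.9 after 6 h. Its libraries overlapped NT after 0.5 and 1 h and lay above NT from 2 h on. The log2 fold change was 0.051 ± 0.12, -0.051 ± 0.12 and 0.28 ± 0.12 in the first 3 comparisons (adjusted p = 0.96, 0.87 and 0.17). After 6 h it was 0.61 ± 0.12, or 1.52 times NT (adjusted p = 0.0029). Against 1 hpd the rise at 6 hpd was 0.66 ± 0.12 (adjusted p = 0.0043). Without 6 hpd replicate 2 these changes were 0.50 (adjusted p = 0.051) and 0.55 (0.067), and without 1 hpd replicate 2 the latter was 0.62 (0.079). Nfkb1 was higher at the time when Zc3h12a and Icam1 were back at NT levels.

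Rela, which encodes p65, the activating partner of p50, was not called at any time. Its unit held 19.6 and 16.9 CPM in NT and 15.1 to 19.2 CPM in the 8 depleted libraries, which overlapped NT at every time. The log2 fold changes were -0.033 ± 0.15, -0.032 ± 0.15, -0.049 ± 0.15 and -0.086 ± 0.15, with adjusted p = 0.98, 0.94, 0.88 and 0.73. The direction was not settled, since each of the 4 values turned above 0 without NT replicate 1.

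Relb, the subunit of the alternative pathway, held 92.8 and 87.1 CPM in NT, 99.1 and 112 after 0.5 h, 102 and 102 after 1 h, 89.2 and 104 after 2 h, and 84.2 and 80.8 after 6 h. Its libraries lay above NT after 0.5 and 1 h and below NT after 6 h, but no change passed. The log2 fold changes were 0.23 ± 0.11, 0.18 ± 0.11, 0.10 ± 0.11 and -0.13 ± 0.11 (adjusted p = 0.52, 0.42, 0.61 and 0.46), and 6 against 1 hpd gave -0.30 ± 0.11 (adjusted p = 0.13). Clasrp shares this unit, and which of the genes carried these small differences cannot be read from the counts. Nfkb2, which encodes p100 and p52 and is the partner of Relb, was far less transcribed. It held 23 to 49 fragments per library, from 1.67 and 1.95 CPM in NT to 2.48 and 2.86 CPM at 2 hpd, where both libraries lay above NT. The log2 fold change there was 0.55 ± 0.28 (adjusted p = 0.24), beside 0.14 ± 0.29, 0.071 ± 0.29 and 0.20 ± 0.29 at the other 3 times.

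Neither feedback inhibitor among the 6 was called higher at any time. Nfkbia, which encodes IkB alpha and is among the fastest NF-kB targets, held 22.6 and 20.1 CPM in NT, 17.4 and 22.7 after 0.5 h, 17.6 and 18.2 after 1 h, 16.0 and 19.1 after 2 h, and 28.6 and 19.7 after 6 h. The libraries of 1 and 2 hpd lay below NT, and those of 0.5 and 6 hpd overlapped it. Log2 fold changes were -0.11 ± 0.18, -0.26 ± 0.18, -0.29 ± 0.18 and 0.17 ± 0.17 (adjusted p = 0.93, 0.48, 0.34 and 0.54). These values belong to a unit of which the gene is a small share, and the gene cannot be read apart from the rest of the unit.

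Tnfaip3, which encodes the ubiquitin-editing enzyme A20, was near the limit of detection, at 24 and 17 fragments in NT and 7 to 22 in the other libraries, and 6 of the 10 libraries held more than 10. The NT libraries, where it was highest, would have passed the filter alone. It measured 1.62 and 1.24 CPM in NT, 0.859 and 0.770 after 0.5 h, 1.13 and 1.02 after 1 h, 0.455 and 0.760 after 2 h, and 0.702 and 0.408 after 6 h. Every depleted library lay below both NT libraries. Log2 fold changes were -0.79 ± 0.38 and -0.41 ± 0.37 after 0.5 and 1 h (adjusted p = 0.54 and 0.61). They were -1.24 ± 0.40 after 2 h (adjusted p = 0.061) and -1.38 ± 0.42 after 6 h (adjusted p = 0.035). DESeq2 did not call the change at 6 hpd (adjusted p = 0.17), and neither did fits that left out either NT library (0.14 without the first, 0.076 without the second), either 6 hpd library (0.058 and 0.24) or the first 1 hpd library (0.0502). At 2 hpd it passed without 2 hpd replicate 2 (-1.65, adjusted p = 0.045).

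**Figure D3:**
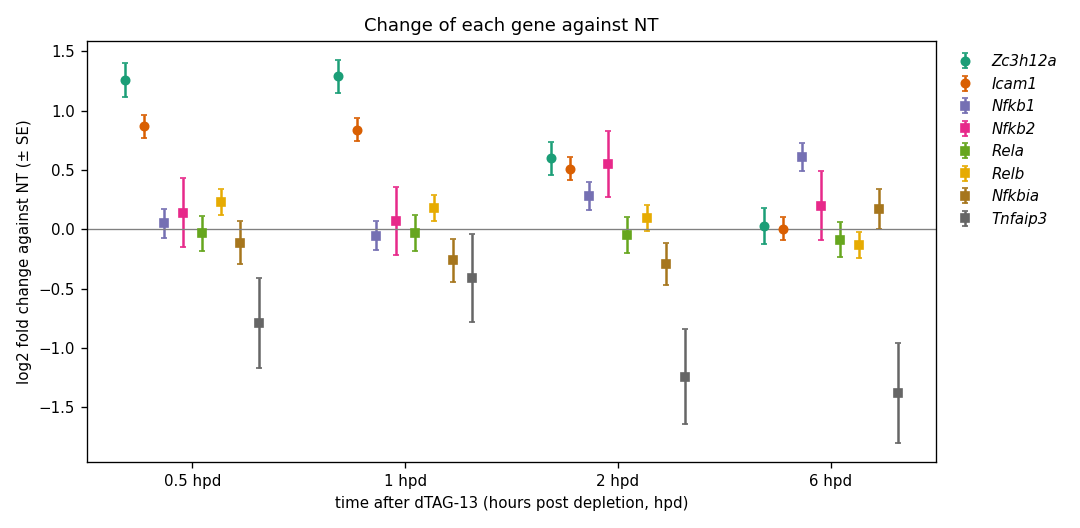
Log2 fold change against NT (edgeR, points, with bars of 1 SE) of the 8 genes at 0.5, 1, 2 and 6 hpd. Zc3h12a and Icam1 (circles) stand at 1.26 and 0.87 at 0.5 hpd and near 0 at the last time, while of the genes chosen by function (squares) Nfkb1 ends at 0.61 and Tnfaip3 at -1.38.

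Per kb of unit, Icam1 was the most transcribed of the 8 in NT, at 2.62 ± 0.028 CPM per kb (SD, n = 2), followed by Relb (1.79 ± 0.079), Zc3h12a (1.48 ± 0.24), Nfkbia (1.02 ± 0.084), Rela (0.684 ± 0.072), Nfkb1 (0.320 ± 0.0080), Nfkb2 (0.151 ± 0.016) and Tnfaip3 (0.0986 ± 0.019). No neighbours in this order overlapped between their libraries. The order is one of units and not of genes, since Nfkbia, Relb, Rela and Icam1 fill 15.5%, 34.6%, 40.2% and 48.7% of their units. At 0.5 hpd Zc3h12a, at 3.58 ± 0.42, stood above Relb, at 2.10 ± 0.18, and it remained above Relb at 1 hpd (3.63 against 2.02) and 2 hpd (2.25 against 1.92). At 6 hpd Relb (1.64), Zc3h12a (1.51) and Nfkbia (1.15) followed Icam1 (2.63), and the libraries of Relb overlapped those of Zc3h12a, which overlapped those of Nfkbia.

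To place the rise of Zc3h12a and Icam1 in the pathway, 4 lists of other NF-kB genes were examined, 55 tested of 86 listed. Over the 4 times 1, 3, 6 and 11 of the 55 were called higher and 0, 0, 1 and 4 lower. DESeq2 called 1, 4, 8 and 10 higher and 0, 0, 1 and 1 lower. Among all units with a gene symbol, 0.834%, 3.55%, 6.88% and 10.4% were called higher at these times and 0.813%, 3.57%, 5.34% and 7.75% lower. The median log2 fold change of the 55 was 0.081, 0.15, 0.12 and 0.18, against -0.022 to -0.043 over all units. The latter include units without a symbol, and no median over units with a symbol was taken, so the 2 sets are unlike. Without NT replicate 2 the calls in either direction numbered 0, 0, 0 and 4 in place of 1, 3, 7 and 15. The first count was 0 without 0.5 hpd replicate 2 and 2 without NT replicate 1. The count after 1 h was 1 or 0 when the first or second 1 hpd library was left out, and 5 without 2 hpd replicate 2. The count after 2 h was 3 without 2 hpd replicate 1, and that after 6 h was 6 or 5 when the first or second 6 hpd library was left out.

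Of the NF-kB target genes outside the 8, 13 of 37 were tested. The 1 early call was Irf1, which encodes a transcription factor of the interferon response. Irf1 went from 35.0 ± 2.5 CPM in NT (SD, n = 2) to 61.9 ± 8.9 after 0.5 h and held 55.0 ± 1.6 after 6 h. Its log2 fold changes were 0.81 ± 0.14, 0.66 ± 0.14, 0.62 ± 0.14 and 0.65 ± 0.14 (adjusted p = 0.0069, 0.0080, 0.0081 and 0.0045). Its calls after 0.5, 1 and 2 h did not hold when NT replicate 2 was left out, nor the first without 0.5 hpd replicate 2 or the second without 1 hpd replicate 2, since no pathway gene was then called at those times. Cflar, an inhibitor of caspase-8 activation, was called at 6 hpd (0.80 ± 0.15, adjusted p = 0.0019) and not before. Sod2, the mitochondrial superoxide dismutase, fell by 0.37 ± 0.093 after 2 h and by 0.38 ± 0.093 after 6 h (adjusted p = 0.021 and 0.012). Tnfaip2 rose at 2 and 6 hpd (2.36 ± 0.61 and 2.40 ± 0.62, adjusted p = 0.023 and 0.016) from a mean of 20 fragments over the libraries. At 0.5 hpd Gadd45b stood at 0.59, Birc3 at 0.092 and Bcl2l1 at 0.17, and none of these was called at any time.

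Of the 6 other subunits and IkB proteins, Nfkbiz, an atypical nuclear IkB, rose from 1 hpd on, by 0.46 ± 0.13, then 0.57 ± 0.13 and 0.63 ± 0.13 on the log2 scale (adjusted p = 0.0497, 0.0095 and 0.0038). Bcl3, another nuclear IkB protein, stood at 0.39 ± 0.11 after 0.5 h (adjusted p = 0.12) and fell by 0.39 ± 0.11 in the 6 h libraries (adjusted p = 0.030), a change that DESeq2 did not call. Rel, the subunit c-Rel, was not called, with 0.26 after 0.5 h and 0.020 after 6 h. Of 26 tested IKK kinases, adaptors and receptors, 0, 1, 1 and 3 rose and none fell (DESeq2: 0, 1, 2 and 2), which is near the 0.834%, 3.55%, 6.88% and 10.4% of units with a symbol called higher. Map3k14, the kinase NIK of the alternative pathway, was the call at 1 hpd (0.56 ± 0.14, adjusted p = 0.031), the TNF receptor gene Tnfrsf1a that at 2 hpd (0.60 ± 0.18, adjusted p = 0.049), and Map3k14, Irak4 and Tradd were the calls at 6 hpd (0.64, 0.54 and 0.59).

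Among 10 tested negative regulators, 0, 0, 2 and 4 rose and 0, 0, 0 and 2 fell, while DESeq2 called 0, 0, 3 and 4 higher and none lower. Of units with a symbol, 6.88% and 10.4% were called higher after 2 and 6 h and 7.75% lower after 6 h. Cyld, a deubiquitinase that restrains IKK activation, rose by 0.61 at 2 and at 6 hpd (adjusted p = 0.013 and 0.0084), from 31.6 ± 3.8 to 48.4 ± 2.0 CPM. Rnf11 rose by 0.44 and 0.58 (adjusted p = 0.039 and 0.0058). Tnip1, which encodes a binding partner of A20, fell by 0.34 at 6 hpd (adjusted p = 0.028), from 128 ± 8.0 to 101 ± 1.7 CPM, and DESeq2 did not call this fall.

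**Figure D4:**
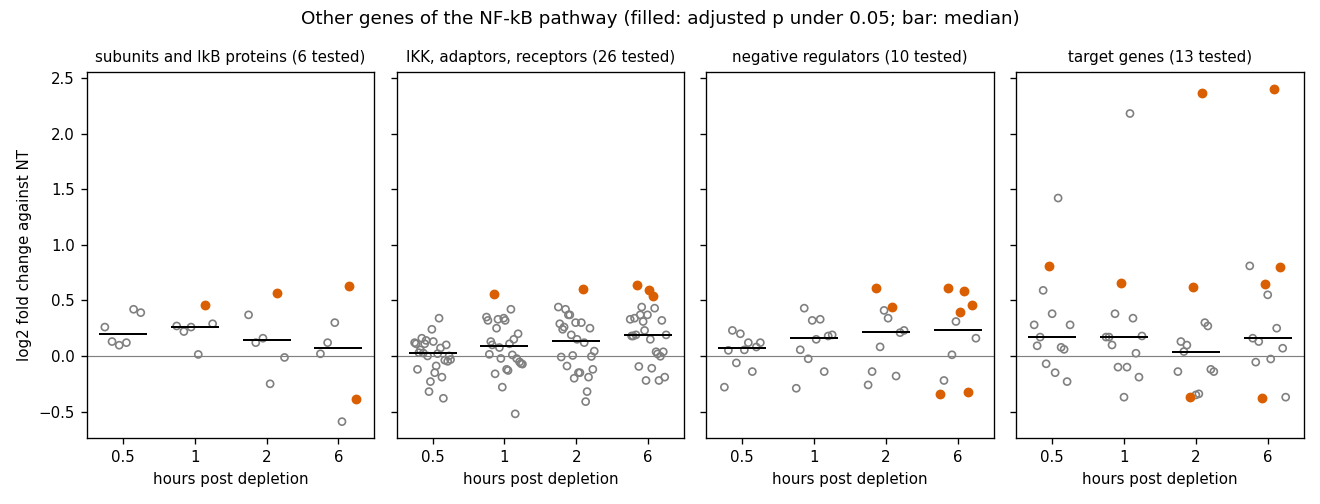
Log2 fold change against NT of the other NF-kB pathway genes at 0.5, 1, 2 and 6 hpd, by list, with 1 point per tested gene, filled where the adjusted p in edgeR was under 0.05, and a bar at the median. At 0.5 hpd the single filled point is Irf1 at 0.81, and at 6 hpd 11 points are filled above 0 and 4 below.

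The relatives of Zc3h12a and Icam1 were examined in the same way. Of 8 tested genes for Regnase family and other RNA decay factors, 1, 1, 1 and 2 rose at the 4 times and 0, 0, 1 and 1 fell (DESeq2: 1, 1, 2 and 2 higher and 0, 0, 0 and 1 lower). Of units with a symbol, 0.834%, 3.55%, 6.88% and 10.4% were called higher and 0.813%, 3.57%, 5.34% and 7.75% lower. Zfp36, which encodes tristetraprolin, a protein that also destabilises inflammatory mRNAs, rose at 0.5 hpd by 0.89 ± 0.16 (adjusted p = 0.013), from 7.81 ± 0.57 to 14.6 ± 2.0 CPM. It stayed higher at 1, 2 and 6 hpd (0.89, 0.70 and 0.57, adjusted p = 0.0039, 0.013 and 0.032). Its paralog Zfp36l1 fell at 6 hpd by 0.70 ± 0.11 (adjusted p = 0.00036). Of the ICAM family and partners, 5 of 10 were tested, and Msn was the 1 called. Msn encodes moesin, which links ICAM1 to the actin cytoskeleton, and it changed by 0.64 ± 0.13, 0.74 ± 0.13, 0.48 ± 0.13 and 0.32 ± 0.14 on the log2 scale (adjusted p = 0.025, 0.0031, 0.032 and 0.13).

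Of the units around the 8 genes, none was called at 0.5 hpd. Of 29 units without a gene symbol within 50 kb, 16 were tested, and 0, 1, 1 and 2 were called at 0.5, 1, 2 and 6 hpd. These counts are near or below the share of all units (2.15% higher and 3.61% lower after 1 h, 4.26% and 5.57% after 2 h, 6.61% and 9.20% after 6 h), so that the units named are given as values only. Of 26 tested gene units in the same windows 0, 0, 3 and 2 were called, a share that does not exceed that of all units with a symbol (6.88% higher and 5.34% lower after 2 h, 10.4% and 7.75% after 6 h), and these too are values only. At 0.5 hpd Meaf6, whose unit overlaps that of Zc3h12a on the opposite strand, changed by 0.23 ± 0.099 (adjusted p = 0.46). Gm32611, 17.6 kb upstream of Zc3h12a on the opposite strand, stood at 0.51, 0.67, 0.60 and -0.062 over the 4 times. Gm40245, 22.1 kb upstream on that strand, stood at 0.30, 1.09, 1.26 and 0.34, and neither was called. S1pr2, whose unit overlaps that of Icam1 on the opposite strand, changed by 0.20 ± 0.13 at 0.5 hpd (adjusted p = 0.74). Mrpl4, 2.24 kb upstream of Icam1 on the same strand, changed by -0.16 ± 0.14 at that time (adjusted p = 0.84). The called units without a symbol both lay beside Nfkbia. One, on the opposite strand 5.25 kb upstream and 42.1 kb long, lost transcription with time (-0.20, -0.91, -1.51 and -1.59, adjusted p = 0.88, 0.038, 0.0012 and 0.00073). The other, on the same strand 9.79 kb downstream, stood 2.02 above NT at 6 hpd (adjusted p = 0.019) from a mean of 11.3 fragments. The gene units called were Gbf1, Zfp296 and Gemin7. Gbf1, 14.0 kb upstream of Nfkb2 on the same strand, rose by 0.48 and 0.51 (adjusted p = 0.016 and 0.0077) after 2 and 6 h. Gemin7, next to the Relb unit, fell by 0.50 after 2 h (adjusted p = 0.019). Zfp296, whose unit lies opposite that of Relb, fell by 0.78 after 2 h and by 0.76 after 6 h (adjusted p = 0.031 and 0.026).

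By the root mean square difference of centred log2 CPM over the 10 libraries, among 11937 units with a gene symbol and a mean of at least 50 fragments, the units most like Zc3h12a were Ngfr (0.183), Id1 (0.189), Slc38a8 (0.214), Icam1 (0.220) and Gm41312 (0.230). Ngfr, a receptor of the TNF receptor superfamily, went from 16.4 CPM in NT to 35.0, 39.1, 26.3 and 15.7 CPM at 0.5, 1, 2 and 6 hpd. Those most like Icam1 were Gm41558 (0.0675), Gltp (0.0924), Lama5 (0.0970), Erf (0.128) and Fhl3 (0.130). Lama5, a laminin chain, went from 147 CPM to 227, 257, 203 and 144 CPM. Zc3h12a itself ranked 78 for Icam1. Of the 4 genes chosen by function that had a rank, Relb stood highest, at 421 for Zc3h12a and 249 for Icam1, and Nfkb1 lowest, at 11160 and 10998. Nfkb2 and Tnfaip3 had too few fragments to be ranked. The libraries compared include those of NT and 0.5 hpd, so that the likeness of Zc3h12a to Icam1 and the ranks of the other genes are in part set by the choice of that pair.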

How the data were processed

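TT_chem_seq libraries of SOX2-FKBP cells were analysed, in 5 groups of 2 by their labels. The deposited table holds raw counts of fragments in transcribed units. Per the methods and the submitters' processing notes, the authors mapped reads to mm10 with BWA (0.7.17-r1188), filtered them with SAMtools (1.10), removed duplicates with Picard (2.12.0), split alignments by strand, called units on the pooled libraries with a hidden Markov model and counted fragments in each. Pooled calling fixes 1 set of unit ends for all times, and a unit can hold several genes.

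Units that exceeded 10 fragments in 2 or more libraries (99.7% of fragments) were fitted in edgeR 4.0.16 (R 4.3.3; TMM factors, 1 coefficient per group over all 10 libraries, quasi-likelihood F-test) with p-values adjusted by Benjamini-Hochberg over all 28459 units, and a call needed less than 0.05. The SE is the log2 fold change over the square root of F, and log2 CPM used a prior count of 2. The procedure was tested on simulated data. Library depth limits low units most, and counting error alone understates the spread: the chi-square of a replicate pair, divided by its degrees of freedom, was 3.09 to 11. The genes and gene lists were chosen with earlier results of these data known. Named were the 8 genes, up to 4 genes called against NT of each list by the joint test over the 4 times (further list genes were named after their values were seen), units near a member and the 5 most alike. Promoters were searched over the 250 bases before each RefSeq start site. Alternatives were DESeq2 1.42.0, RLE factors, library totals, fits without the count filter, restricted to a mean of at least 50 fragments or to the libraries compared, a block for the replicate number and leaving out each library. The search for 9 letters, the background of units with a symbol and the gene units near members were added after seeing the data.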

Additional observations from a re-analysis of the deposited data

How the results depend on the processing

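With groups of 2, calls could turn on single libraries. Leaving out each library was run for the 8 genes and for the counts of pathway genes, and not for single genes of the lists or neighbouring units. Of 735 alternative values for the 8 genes, 666 kept their direction and side of the threshold or moved by less than 1 SD. Another 29 passed or lost the threshold, 22 moved by more and 18, all of genes chosen by function, changed sign. Sign was not counted for Zc3h12a and Icam1 at 6 hpd against NT. There the log2 fold changes crossed 0, from -0.11 to 0.22 and from -0.083 to 0.039. The fall of Zc3h12a and Icam1 from 1 to 6 hpd was called under every alternative, with log2 changes of -1.42 to -1.12 and -0.87 to -0.82. Scaling by library totals lowered the median of all units at 2 hpd by 0.12 and turned Relb there to -0.0069 and Nfkb2 at 1 hpd to -0.015. Leaving out 1 library at a time, uncalled changes spanned 0: at 0.5 hpd -0.077 to 0.17 for Nfkb1, -0.035 to 0.40 for Nfkb2, -0.13 to 0.081 for Rela and -0.28 to 0.089 for Nfkbia. The range was -0.047 to 0.21 for Nfkb2 and -0.11 to 0.098 for Rela at 1 hpd, -0.19 to 0.076 for Rela and -0.024 to 0.21 for Relb at 2 hpd, and -0.27 to 0.084 for Rela and -0.10 to 0.42 for Nfkbia at 6 hpd. From 1 to 6 hpd it was -0.062 to 0.28 for Nfkb2 and -0.24 to 0.098 for Rela. Zc3h12a at 6 hpd against NT, which was not tested, also spanned 0 (-0.11 to 0.22).

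Of the 6 genes chosen by function, 0 to 1 were called at 2 hpd and 0 to 2 at 6 hpd without 1 library. At 6 hpd DESeq2 called 1, as did a mean of at least 50 fragments, which removes Nfkb2 and Tnfaip3 and gives no value for them. From 1 to 2 hpd 1 of the 8 was called by DESeq2, without a count filter or with only the libraries compared, and 0 to 1 without 1 library. From 2 to 6 hpd the counts were 2 (DESeq2), 0 (only the libraries compared) and 0 to 1 (without 1 library). Of the other pathway genes, 0 to 2, 0 to 5, 0 to 10 and 4 to 22 were called at 0.5, 1, 2 and 6 hpd without 1 library, and 13 and 23 at 1 and 6 hpd with only the libraries compared. A 20 kb window left 10 of the 16 tested units without a symbol, likeness over group means kept 3 of 5 units for Icam1 and 4 of 5 for Zc3h12a, and the looser kB motif matched 6 genes. The cause of these changes was not tested.

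The deviations of replicate 1 correlated at 0.0544 to 0.663 over the 10 pairs of groups. The lowest values were those of 6 hpd, at 0.0544 with 0.5 hpd and at 0.0638 with 2 hpd. No label says what a number shares, so that the replicates were not taken as pairs. The source of these correlations was not tested. With the number as a replicate block, 1 of the 6 genes was called at 2 hpd (Tnfaip3, -1.25, adjusted p = 0.028), 1 of the 8 from 1 to 2 hpd (Zc3h12a, adjusted p = 0.0040) and 2 from 2 to 6 hpd (Icam1 and Zc3h12a, the latter with adjusted p = 0.014), and 3, 11, 17 and 24 pathway genes at the 4 times. Relb was then called from 1 to 6 hpd (-0.30, adjusted p = 0.047), as it was with only the libraries compared (0.023).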
